A study of Rattus norvegicus with 372 samples.

Results

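The 10 genes of the chemokine and NF-kB feedback group described here are the chemokine genes Cxcl1, Cxcl2, Ccl2, Ccl7 and Ccl20, the inhibitor genes Nfkbia, Nfkbie and Tnfaip3, the NF-kB subunit gene Relb and the adhesion molecule gene Icam1. They were found by symbol among the 20946 genes of the whole-transcriptome (WT) assay, in which all 10 members had a probe, and among the 2604 genes of the S1500+ (ST) assay, which held 9 of the 10 members and no Ccl20. TempO-Seq counts reads of ligated detector probes, and each member was read by 1 probe, with the same probe number in both assays, so that a level is comparable between wells for one gene and not between genes.

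Primary hepatocytes of male Wistar rats were held in a collagen sandwich and exposed for 24 h to 14 chemicals at 2 concentrations each, with 0.5% DMSO as vehicle and culture medium alone as a further control. The chemicals, each at its low and high concentration, were acetaminophen (400 and 10000 µM), caffeine (400 and 10000 µM), chloramphenicol (18 and 450 µM), diclofenac (16 and 400 µM), doxorubicin (0.08 and 2 µM), indomethacin (12 and 300 µM), isoniazid (400 and 10000 µM), ketoconazole (0.6 and 15 µM), naproxen (80 and 2000 µM), ranitidine (160 and 4000 µM), simvastatin (2.4 and 60 µM), sulfasalazine (4 and 100 µM), valproic acid (labelled Valproic, 400 and 10000 µM) and WY14643 (8 and 200 µM). Each of the 2 batches used the cells of 1 rat, with 3 wells of 1 plate per treatment, and batch 1 had 3 vehicle and 3 medium wells, while batch 2 had 6 of each. All groups, the controls included, were cultured with 100 nM dexamethasone, a glucocorticoid that is known to dampen inflammatory transcription. No inflammatory stimulus such as a cytokine was among the treatments. Unless another comparison is named, changes below are from the DMSO vehicle. Of the 8 members tested, 6 were lower in medium alone than in that vehicle.

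NF-kB is held in the cytoplasm by inhibitor proteins of the IkB family. When an IkB is phosphorylated and degraded, NF-kB dimers enter the nucleus and switch on chemokines that attract neutrophils (Cxcl1, Cxcl2), monocytes (Ccl2, Ccl7) or lymphocytes and dendritic cells (Ccl20), the leukocyte-binding molecule Icam1, and also their own brakes: Nfkbia encodes IkB alpha, Nfkbie encodes IkB epsilon, and Tnfaip3 encodes A20, a ubiquitin-editing enzyme that shuts down the upstream kinase signal. Relb encodes a subunit that acts mainly in the non-canonical branch of the pathway. Hepatocytes are known to make several of these products when stressed or exposed to cytokines, and Kupffer cells, the liver macrophages, are another known source.

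The kappaB consensus motif is the DNA word that NF-kB dimers bind. It was searched on both strands, overlapping matches counted, in the promoter windows that RefSeq gives for the rat assembly GRCr8, each of 300 bases from 250 before to 50 after the gene start. Of the 8 members with a window, 7 (87.5%) held a match, against 2515 of all 33469 windows (7.51%). The genes are known targets of NF-kB, so this describes the list and tests nothing. The stretches below show the match in capitals with 20 bases on either side, and they are printed for the genes whose levels are described most closely. They lie at chr14:17479375-17479425 (minus strand) for Cxcl1, chr14:17467299-17467349 (minus) for Cxcl2, chr9:91837050-91837099 (plus) for Ccl20, chr6:78597074-78597123 (minus) for Nfkbia, chr9:22948007-22948056 (minus) for Nfkbie and chr1:15544005-15544066 (minus) for Tnfaip3, all read 5′ to 3′ on the strand of the gene.
Cxcl1: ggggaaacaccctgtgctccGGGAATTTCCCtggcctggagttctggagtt
Cxcl2: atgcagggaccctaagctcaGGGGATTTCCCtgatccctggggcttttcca
Ccl20: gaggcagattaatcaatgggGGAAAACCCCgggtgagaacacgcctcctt
Nfkbia: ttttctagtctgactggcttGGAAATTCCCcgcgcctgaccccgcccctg
Nfkbie: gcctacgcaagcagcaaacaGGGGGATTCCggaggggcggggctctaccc
Tnfaip3: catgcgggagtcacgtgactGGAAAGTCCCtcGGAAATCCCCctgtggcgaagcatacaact
In Cxcl1 and Cxcl2, neighbouring genes of the same chromosome, the capitals hold overlapping matches of both strands, 84 to 74 and 74 to 64 bases before the start. The window of Tnfaip3 held 4 matches, of which 2 are shown, and the window of Icam1 held none.

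Read depth of the WT wells ran from 2709504 to 8948654 reads in batch 1 and from 2289425 to 8975207 in batch 2, the shallowest being a medium well. Of the 10 members, 8 reached a mean of 10 counts per well and were tested. Cxcl1 (mean 8.30 counts) and Ccl7 (mean 6.83 counts) did not, so their WT values are given as levels, and Cxcl1 was tested in the ST assay (mean 21.0 counts). The log2 fold change (L2FC) against vehicle came from edgeR's quasi-likelihood test over all wells with batch as a term, and a gene was called at a Benjamini-Hochberg adjusted p under 0.05 over the 10191 genes tested. The wells of a rat are technical replicates, so these p-values measure mostly the spread between wells of the same 2 rats. The counts summed per rat, with 1 value per rat and group, were therefore fitted as well. All comparisons with vehicle share the same 9 vehicle wells.

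The members fell far more often than they rose. Over the 14 high concentrations, 63 of 112 member-treatment pairs were called lower (56.2%), where 25.5% of all gene-treatment pairs were lower, and 13 pairs were called higher (11.6%), against 25.4% of all pairs. The median L2FC of the 112 pairs was −0.59, against 0.0026 over all genes tested. With the wells summed per rat, 50 pairs were lower and 11 higher, when 18.3% and 18.5% of all pairs were called. More members were lower than higher in 12 of the 14 high concentrations. The members did not move as one block: Cxcl2 was lower with 12 and Nfkbie with 11 of the 14 high concentrations, Nfkbia was lower with 1 and higher with 3, and Icam1 was called in both directions.

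**Figure D1:**
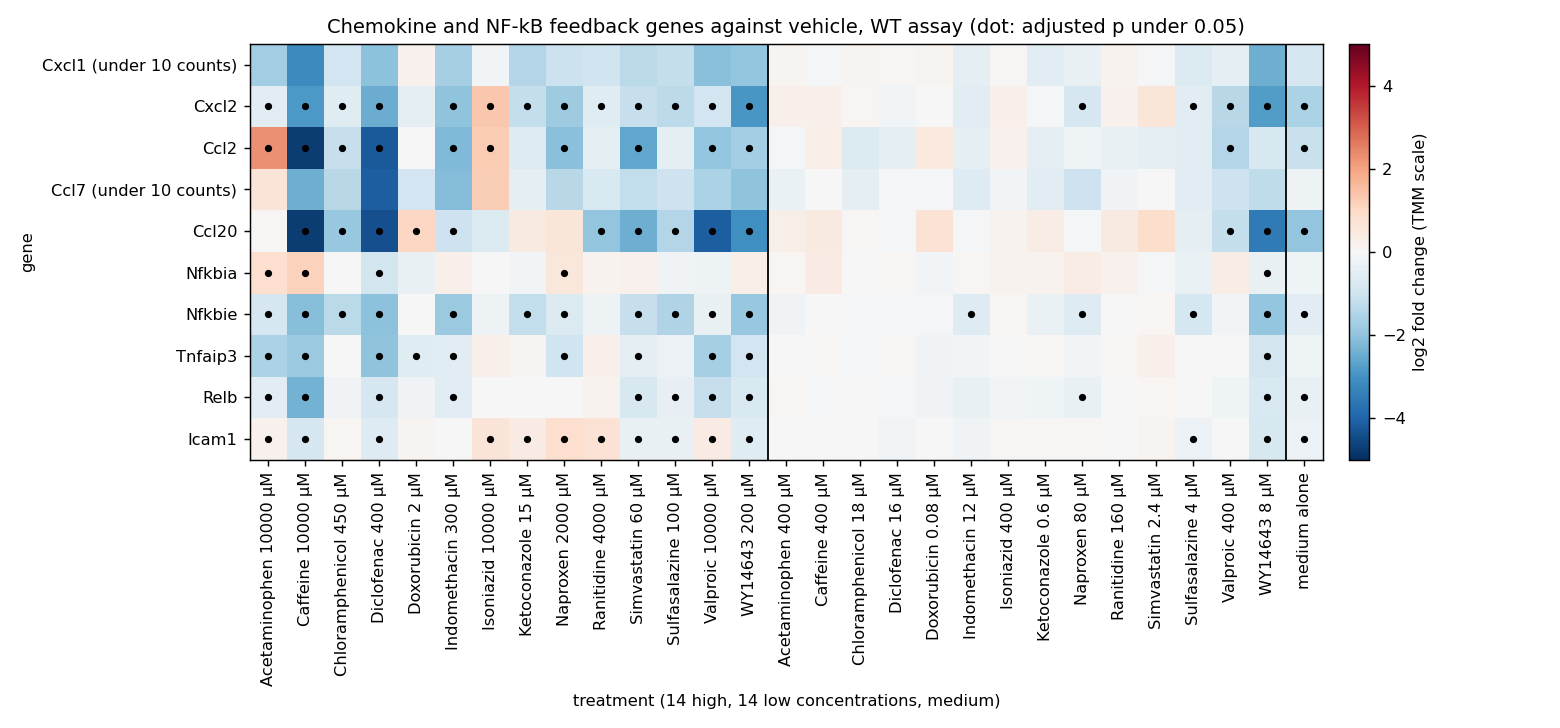
Colour gives the log2 fold change against vehicle (WT assay, TMM scale) of the 10 genes (rows) in 14 high and 14 low concentrations and in culture medium alone (columns), and a dot marks an adjusted p under 0.05 for the 8 tested genes. Most cells of the chemokine and Nfkbie rows are blue at the high concentrations and at 8 µM WY14643, while Icam1 shows both colours, Ccl2 is red under acetaminophen and isoniazid, Cxcl2 and Ccl7 under isoniazid and Ccl20 under doxorubicin.

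Cxcl2, a ligand of the neutrophil receptor CXCR2, was called lower with 12 of the 14 high concentrations and higher with 1. Its level in vehicle wells was 10.8, 13.7 and 14.1 CPM (reads scaled to the total of the well) in batch 1 and 10.1, 11.6 and 15.3 CPM (lowest, median and highest) in batch 2. With 10000 µM isoniazid it stood at 33.2, 43.2 and 43.3 CPM in batch 1 and at 21.8, 31.2 and 35.8 CPM in batch 2. Every isoniazid well was above every vehicle well of its batch (L2FC 1.36, SE 0.19, adjusted p = 2.88e-10).

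The deepest falls of Cxcl2 came with WY14643, a PPAR alpha agonist, and with caffeine. With 200 µM WY14643 it read 0.712, 1.08 and 1.41 CPM in batch 1 and 1.14, 1.85 and 2.36 CPM in batch 2 (L2FC −2.90, SE 0.26, adjusted p = 1.04e-20). With 10000 µM caffeine it read 0.952, 2.96 and 3.27 CPM in batch 1 and 0.127, 1.05 and 1.91 CPM in batch 2 (L2FC −2.87, SE 0.26, adjusted p = 2.12e-20). None of these wells reached the lowest vehicle well. Diclofenac (−2.47) and indomethacin (−2.01) followed, and the other called falls at high concentrations ran from −1.77 with naproxen to −0.52 with acetaminophen. Only doxorubicin, at 7.70 to 11.9 CPM in batch 1 and 8.48 to 10.1 CPM in batch 2, left Cxcl2 uncalled (L2FC −0.43, SE 0.20, adjusted p = 0.125).

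Ccl2, the monocyte chemoattractant MCP-1, moved in both directions. Vehicle wells held 10.5, 11.3 and 19.1 CPM in batch 1 and 2.94, 6.86 and 12.0 CPM (lowest, median, highest) in batch 2. With 10000 µM acetaminophen it rose to 47.5, 50.7 and 83.5 CPM in batch 1 and 14.3, 25.2 and 29.2 CPM in batch 2, all above vehicle (L2FC 2.30, SE 0.31, adjusted p = 2.18e-11). This L2FC is on the TMM scale (trimmed mean of M-values, which centres each well on the bulk of its genes), and scaled by total counts, as the CPM are, it was 1.87 (adjusted p = 7.46e-08). With 10000 µM isoniazid it read 14.2, 41.6 and 57.3 CPM in batch 1 and 12.7, 15.4 and 24.6 CPM in batch 2 (L2FC 1.27, SE 0.32, adjusted p = 0.000503). One isoniazid well of batch 1 lay within the vehicle range, and the other 5 wells were above it.

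Ccl2 nearly vanished with caffeine and diclofenac. The 3 caffeine wells of batch 1 held 4 reads together where the 3 vehicle wells held 256, a rate 53.5 times lower (exact 95% interval 20.6 to 198), and in batch 2 they held 9 reads, 20.4 times lower (10.6 to 45.0). These intervals cover counting error only. With 400 µM diclofenac Ccl2 read 0.343, 0.806 and 1.75 CPM in batch 1 and 0.275, 0.277 and 0.480 CPM in batch 2 (L2FC −4.18, SE 0.52, adjusted p = 5.02e-13). Simvastatin (−2.58), indomethacin (−2.21), naproxen (−2.07), valproic acid (−1.94), WY14643 (−1.72) and chloramphenicol (−1.15) lowered it too, 8 of the 14 high concentrations in all. Under ketoconazole it read 9.37, 14.5 and 17.1 CPM in batch 1, around vehicle, and 1.27, 1.90 and 1.99 CPM in batch 2, below it. Neither the L2FC over both batches (−0.63, SE 0.35, adjusted p = 0.121) nor the difference between the batches (interaction adjusted p = 0.0678) was called.

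Ccl20, the ligand of CCR6, was lower with 9 high concentrations. It had 7.83, 8.23 and 8.75 CPM in the vehicle wells of batch 1 and 3.23, 3.50 and 5.42 CPM (lowest, median, highest) in batch 2. With 10000 µM valproic acid, a histone deacetylase inhibitor, it fell to 0.250, 0.930 and 0.948 CPM in batch 1, and in batch 2 the 3 wells held 2 reads against 154 in the 6 vehicle wells, 43.1 times lower (exact 95% interval 11.7 to 359). With caffeine 3 reads were left in batch 1 (44.6 times lower, 15.0 to 218) and 4 in batch 2 (22.5 times lower, 8.61 to 83.6), and with diclofenac 3 and 8 reads. With 8 µM WY14643, the low concentration, the wells of batch 1, on the plate without vehicle, held 3 reads together (46.2 times lower, 15.5 to 226), and those of batch 2 read 0.268, 0.276 and 1.11 CPM (L2FC over both −3.53, SE 0.53, adjusted p = 2.05e-09). Its single call upwards was with 2 µM doxorubicin, an anthracycline that damages DNA (L2FC 1.03, SE 0.31, adjusted p = 0.0101). There the wells of batch 2 rose to 11.3, 13.9 and 15.3 CPM, while those of batch 1 (6.11, 7.53 and 8.01 CPM) overlapped vehicle, and the L2FC differed between the batches (−0.10 and 1.74, interaction adjusted p = 0.0269).

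**Figure D2:**
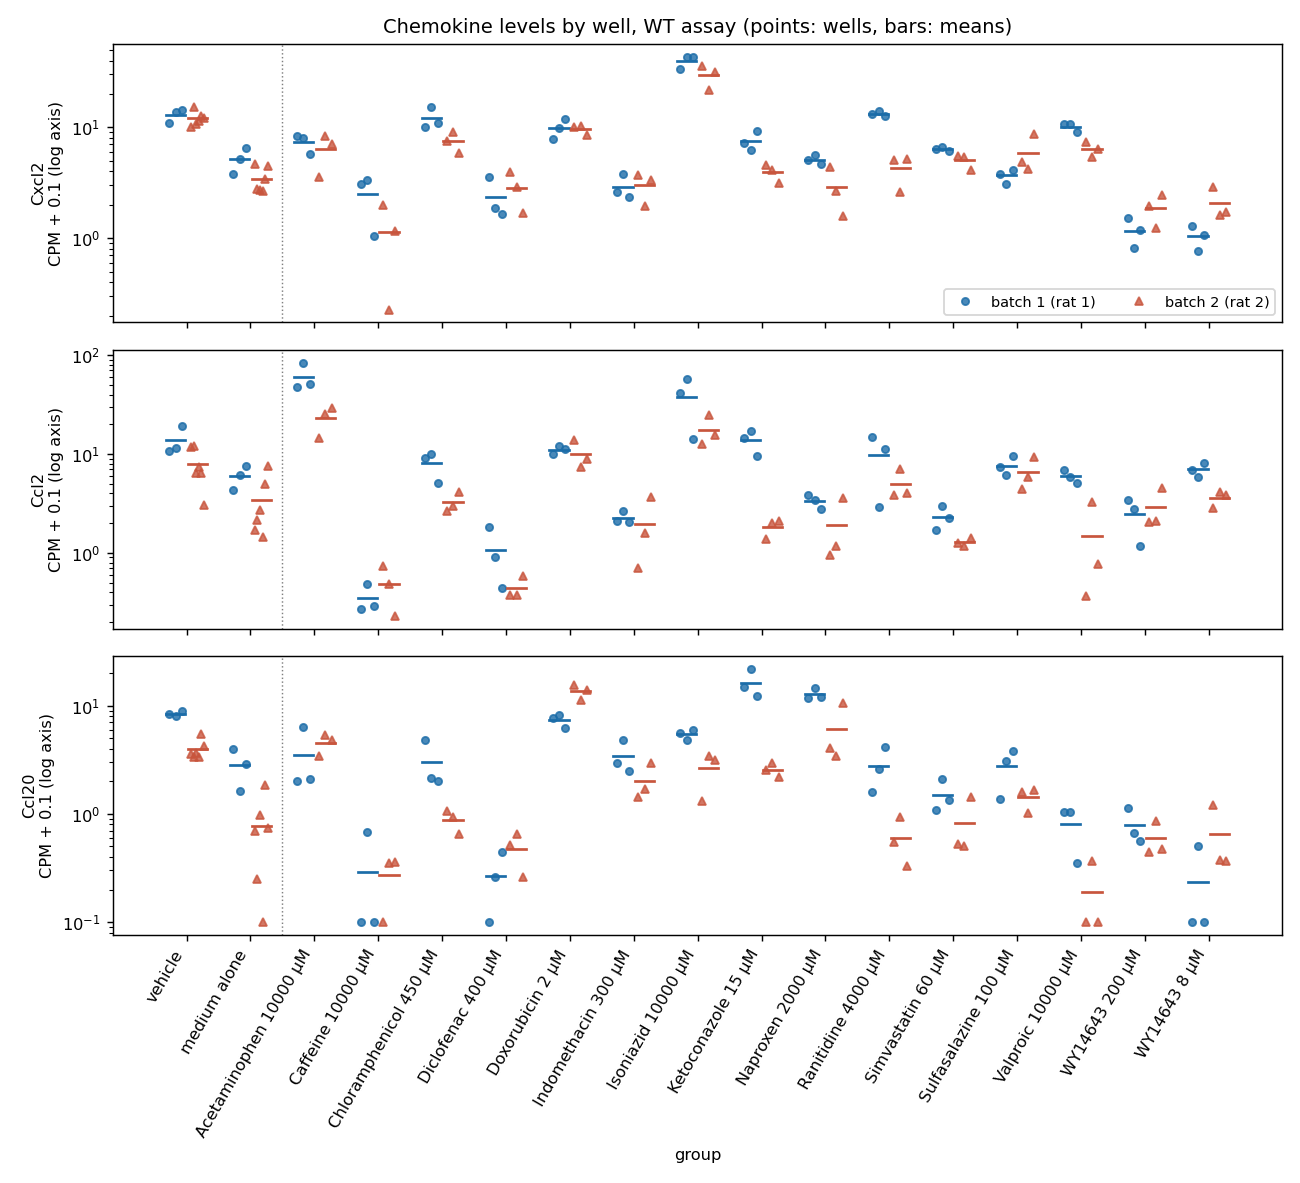
Each point is 1 well of the WT assay, drawn as CPM + 0.1 on a log axis for Cxcl2, Ccl2 and Ccl20 in vehicle, medium, the 14 high concentrations and 8 µM WY14643, with circles for batch 1, triangles for batch 2 and bars for means. Isoniazid wells of Cxcl2 sit above vehicle and WY14643 wells below it in both batches, and Ccl2 is highest with acetaminophen.

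Cxcl1, the sister ligand of Cxcl2 at CXCR2, had few WT reads: vehicle wells held 1.61, 1.94 and 2.37 CPM in batch 1 and 0.972, 1.34 and 3.97 CPM (lowest, median, highest) in batch 2. In the ST assay it was called lower with 13 of the 28 treatments and higher with none, at a background of 17.6% of gene-treatment pairs lower and 17.1% higher. Its ST falls were largest with caffeine (L2FC −3.53, adjusted p = 7.84e-13), 200 µM WY14643 (−2.55), 8 µM WY14643 (−2.26) and diclofenac (−2.17). Isoniazid, which raised Cxcl2, left Cxcl1 at an L2FC of 0.052 on the ST scale (adjusted p = 0.895). Ccl7, a monocyte attractant of the Ccl2 cluster, was at the detection limit, with 1.82, 2.32 and 2.42 CPM in the vehicle wells of batch 1 and 0.278, 0.594 and 1.38 CPM (lowest, median, highest) in batch 2. All 6 isoniazid wells lay above vehicle, at 3.77, 4.12 and 7.35 CPM in batch 1 and 1.80, 2.02 and 2.29 CPM in batch 2. With 400 µM diclofenac the 3 wells of batch 2 held 0 reads where the 6 vehicle wells held 29, which is 5.01-fold lower at the floor of 3 reads over the group, with an exact 95% lower limit of 3.82-fold, and those of batch 1 held 3 reads together.

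The 3 inhibitor genes, all feedback targets of NF-kB, parted company. Nfkbie was lower with 11 of the 14 high concentrations and higher with none. Tnfaip3 was lower with 9 and higher with none, and Nfkbia was higher with 3 and lower with 1. Nfkbia and Nfkbie were called in opposite directions with acetaminophen, caffeine and naproxen, and in the same direction, lower, with diclofenac and with 8 µM WY14643. With the wells summed per rat Nfkbia was not called with 8 µM WY14643.

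Nfkbia, which encodes IkB alpha, had vehicle levels of 11.6, 12.5 and 17.7 CPM in batch 1 and 18.3, 21.2 and 25.4 CPM (lowest, median, highest) in batch 2. With 10000 µM caffeine it rose to 22.1, 23.5 and 25.9 CPM in batch 1 and 44.1, 51.4 and 60.6 CPM in batch 2, above every vehicle well (L2FC 1.17, SE 0.16, adjusted p = 2.26e-11). In the same wells Nfkbie, which encodes IkB epsilon, fell to 3.47, 4.00 and 4.01 CPM in batch 1 and 4.19, 5.22 and 5.25 CPM in batch 2, from 15.2, 18.8 and 19.8 CPM and 17.4, 21.5 and 34.9 CPM (lowest, median, highest) in vehicle (L2FC −2.14, SE 0.20, adjusted p = 7.05e-20). The caffeine groups of both genes lay clear of vehicle, on opposite sides. Nfkbia also rose with 2000 µM naproxen, to 18.7, 20.1 and 21.1 CPM in batch 1 and 32.8, 34.3 and 34.8 CPM in batch 2 (L2FC 0.59, SE 0.16, adjusted p = 0.000941). With 10000 µM acetaminophen its L2FC was 0.85 (SE 0.16, adjusted p = 7.58e-07), though wells at 14.3 CPM in batch 1 and 16.9 CPM in batch 2 lay within or below the vehicle range, and scaled by total counts it was 0.45 (adjusted p = 0.00554). Diclofenac was the one high concentration that lowered it (L2FC −0.91, SE 0.17, adjusted p = 1.16e-06).

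Nfkbie fell with 8 µM and with 200 µM WY14643 (L2FC −1.92 and −1.89), and with diclofenac (−2.04), indomethacin (−1.87), sulfasalazine (−1.51), chloramphenicol (−1.34), ketoconazole (−1.25) and simvastatin (−1.14). With 8 µM WY14643 it read 2.55, 2.83 and 4.02 CPM in batch 1 and 4.97, 5.23 and 7.77 CPM in batch 2, below every vehicle well. Isoniazid, ranitidine and doxorubicin were the 3 high concentrations without a call on Nfkbie.

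Tnfaip3, the gene of A20, was read at 186.4, 205 and 219 CPM in the vehicle wells of batch 1 and 227, 245 and 255 CPM (lowest, median, highest) in batch 2. Diclofenac cut it to 27.1, 29.7 and 34.2 CPM in batch 1 and 55.0, 70.9 and 154 CPM in batch 2 (L2FC −2.03, SE 0.18, adjusted p = 3.40e-21). Caffeine (−1.84), valproic acid (−1.66) and acetaminophen (−1.59) followed, and with acetaminophen the wells held 41.8, 48.9 and 65.9 CPM in batch 1 and 55.9, 57.3 and 66.0 CPM in batch 2, below all vehicle wells. Tnfaip3 was also the member whose L2FC most often differed between the batches. The interaction of batch and treatment was called in 7 of the 29 comparisons. These were caffeine, diclofenac, ketoconazole, ranitidine, sulfasalazine, valproic acid and WY14643 at their high concentrations. With ketoconazole, ranitidine and sulfasalazine the sign differed, and none of these 3 was called over both batches.

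**Figure D3:**
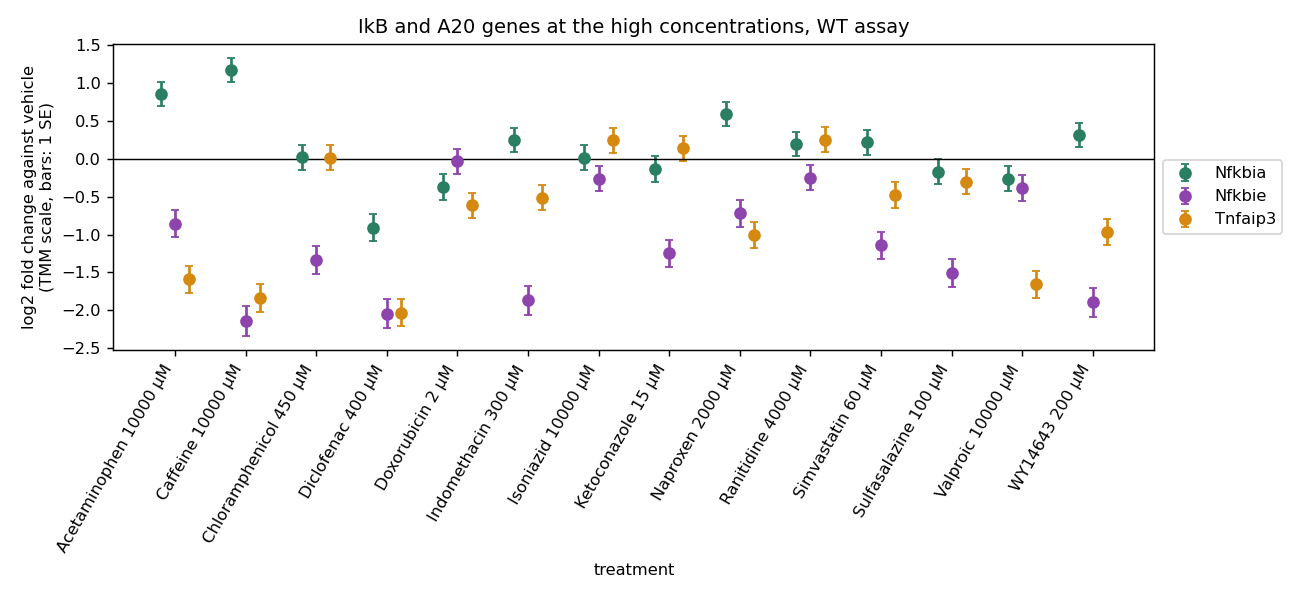
Points give the log2 fold change against vehicle (WT assay, TMM scale) and bars 1 SE for Nfkbia, Nfkbie and Tnfaip3 at the 14 high concentrations. Nfkbia lies at 0.85 with acetaminophen and 1.17 with caffeine, where Nfkbie and Tnfaip3 lie below 0.

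Relb was lower with 8 high concentrations and higher with none in the WT assay. Its vehicle wells read 143, 163 and 183 CPM in batch 1 and 152, 169 and 199 CPM (lowest, median, highest) in batch 2. Caffeine took it to 17.1, 32.6 and 47.5 CPM in batch 1 and 26.4, 27.4 and 31.8 CPM in batch 2, all far below vehicle (L2FC −2.37, SE 0.15, adjusted p = 3.79e-34). The other called falls were smaller, with an L2FC of −1.14 for valproic acid, −0.84 for diclofenac, −0.81 for simvastatin, −0.78 for WY14643, −0.58 for indomethacin, −0.56 for acetaminophen and −0.39 for sulfasalazine.

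Icam1 encodes the adhesion molecule that leukocytes grip through their beta-2 integrins, and it split the chemicals into both directions. It was higher with 6 high concentrations and lower with 5. With the wells summed per rat 8 of these calls were made. Vehicle wells read 92.7, 97.9 and 101 CPM in batch 1 and 104, 123 and 130 CPM (lowest, median, highest) in batch 2. With 2000 µM naproxen it read 168, 210 and 214 CPM in batch 1 and 173, 199 and 227 CPM in batch 2 (L2FC 0.85, SE 0.09, adjusted p = 1.13e-16). With 4000 µM ranitidine it read 155, 166 and 171 CPM in batch 1 and 160, 182 and 194 CPM in batch 2 (L2FC 0.71, SE 0.09, adjusted p = 9.77e-13). Every naproxen and ranitidine well was above every vehicle well of its batch. Isoniazid (L2FC 0.64), ketoconazole (0.41) and valproic acid (0.40) also raised it.

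Caffeine (−0.83), 8 µM WY14643 (−0.78), diclofenac (−0.63), 200 µM WY14643 (−0.62), sulfasalazine (−0.38) and simvastatin (−0.37) lowered Icam1. With 8 µM WY14643 it read 42.2, 49.1 and 50.8 CPM in batch 1 and 57.8, 58.0 and 62.2 CPM in batch 2, clear of vehicle. The call upwards with acetaminophen (L2FC 0.21, SE 0.09, adjusted p = 0.0264) was carried by batch 1 (0.53) and not by batch 2 (−0.024), and it turned to −0.20 when wells were scaled by total counts. Scaling by total counts lowered the median L2FC over all genes by 0.41 with acetaminophen, the largest such shift. The CPM values given here are per total reads and so are on that lower scale. The same shift was over 0.1 in 10 of the 29 comparisons.

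**Figure D4:**
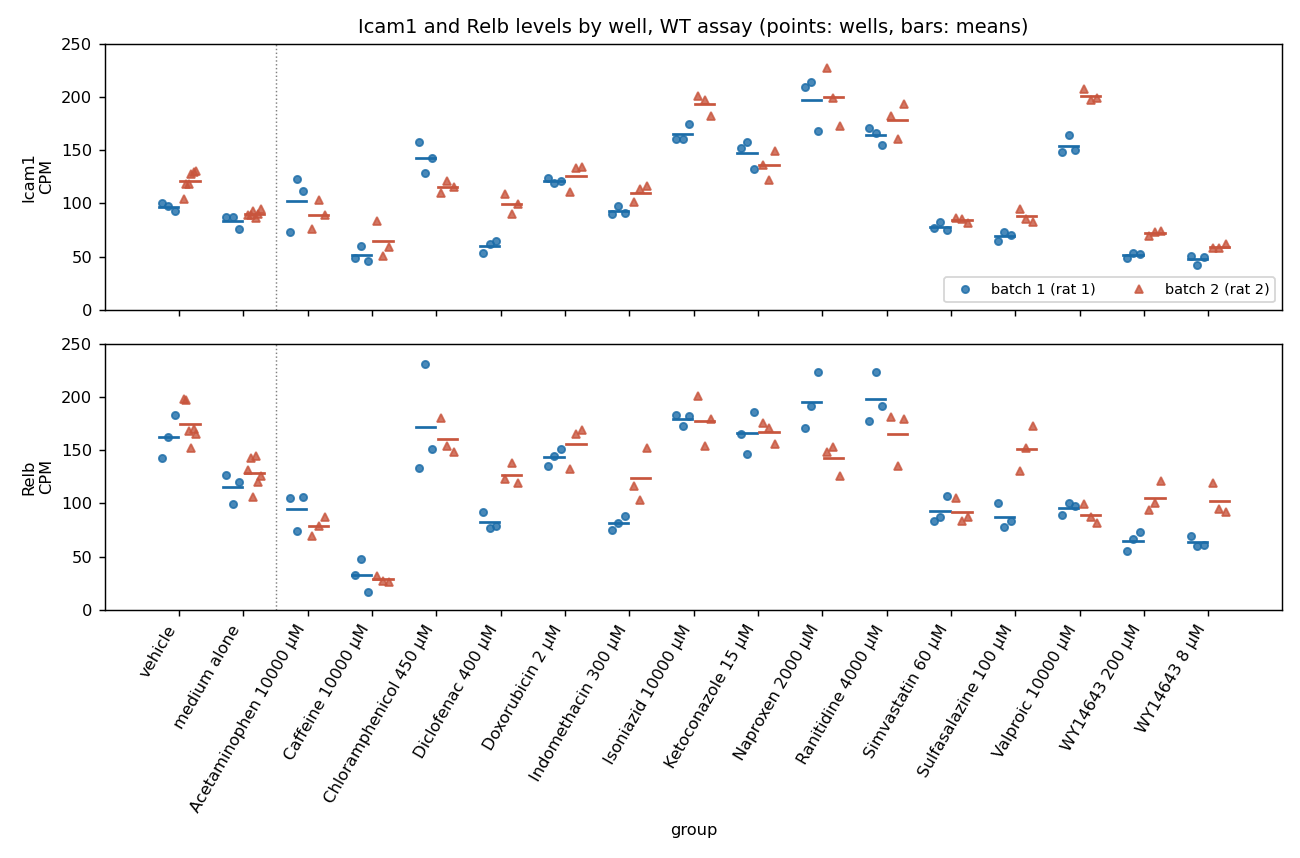
Each point is 1 well of the WT assay, in CPM, for Icam1 and Relb in vehicle, medium, the 14 high concentrations and 8 µM WY14643, with circles for batch 1, triangles for batch 2 and bars for means. Icam1 lies above vehicle with naproxen, ranitidine, isoniazid and valproic acid and below it with WY14643, and Relb is lowest with caffeine.

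By treatment, the members can be read against the share of all genes called. With diclofenac, a nonsteroidal anti-inflammatory drug (NSAID), 8 of 8 tested members were lower (35.8% of all genes lower, 36% higher). Caffeine lowered 7 and raised 1, Nfkbia (31.6% of all genes lower, 34.6% higher). With 200 µM WY14643 7 were lower and none higher (25.3% and 26%). With 60 µM simvastatin, the statin, 7 were lower and none higher, at a background of 12.5% lower and 11.4% higher, and the median L2FC of the members was −0.97. With 10000 µM valproic acid 6 were lower and Icam1 was higher (33.2% and 33.5%). The NSAID indomethacin at 300 µM lowered 6 and raised none (27.6% and 27.1%).

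Sulfasalazine, an anti-inflammatory drug of the colon and joints, lowered 5 members at 100 µM and raised none (19.6% of all genes lower, 21.3% higher). Chloramphenicol, an antibiotic that blocks mitochondrial translation, lowered the 3 tested chemokines and Nfkbie (17.2% and 16.1%), and Tnfaip3, Relb, Nfkbia and Icam1 were not called. Acetaminophen lowered 4 members and raised Ccl2, Nfkbia and Icam1, when 40.1% of all genes were lower and 38.8% higher. Naproxen, the third NSAID, lowered 4 and raised Nfkbia and Icam1 (26.2% and 27.6%).

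Isoniazid stood on the other side. It raised Cxcl2, Ccl2 and Icam1 and lowered no member, when 17.4% of all genes were higher and 17.3% lower. Ketoconazole, an azole antifungal, lowered Cxcl2 and Nfkbie and raised Icam1 (26.3% and 25%). Ranitidine, a histamine H2 blocker, lowered Cxcl2 and Ccl20 and raised Icam1 (33.9% and 32.3%), so its share of members lower was below that of all genes. The fall of Cxcl2 with ranitidine was in batch 2 only: 12.6, 13.0 and 14.0 CPM in batch 1 lay within vehicle, 2.51, 5.01 and 5.04 CPM in batch 2 below it (L2FC 0.20 and −1.42, interaction adjusted p = 0.000323). Doxorubicin raised Ccl20 and lowered Tnfaip3 (10.3% lower, 9.07% higher), and neither call held with the wells summed per rat (adjusted p = 0.296 and 0.398).

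At the low concentrations 17 of 112 pairs were lower (15.2%, against 4.5% of all gene-treatment pairs) and none was higher by edgeR (4.9% of all pairs), while 6 had an L2FC above 0 with an unadjusted p under 0.05 and DESeq2 called 1, Cxcl2 with 2.4 µM simvastatin. With 9 of the 14 low concentrations no member was called. WY14643 at 8 µM lowered 7 members (28.2% of all genes lower). Valproic acid at 400 µM lowered Cxcl2 (L2FC −1.40), Ccl2 (−1.47) and Ccl20 (−1.21), at a background of 14%, and none of the other 5. Sulfasalazine at 4 µM lowered Cxcl2 (−0.58), Nfkbie (−0.87) and Icam1 (−0.30) at a background of 8.03%. Naproxen at 80 µM lowered Cxcl2 (−0.82), Nfkbie (−0.63) and Relb (−0.38) at 7.4%, and indomethacin at 12 µM lowered Nfkbie (−0.63) at 2.34%. With the wells summed per rat 8 of the 17 calls were made, among them none of sulfasalazine, naproxen or indomethacin.

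Set directly against its low concentration, the high concentration called 59 of 112 member-chemical pairs, 47 lower (42%, against 20.7% of all gene-chemical pairs) and 12 higher (10.7%, against 20.1%), and 48 of the 59 were also called per rat. All 8 members differed with caffeine (61.5% of all genes did, in either direction) and with diclofenac (70%), and 7 with simvastatin (24%). There were 6 that differed with acetaminophen (76.3%), 5 with naproxen (47.4%) and with valproic acid (65.3%), and 4 with indomethacin (43%). There were 3 that differed with chloramphenicol (24.3%), isoniazid (31.4%), ketoconazole (41.7%), ranitidine (57.5%) and sulfasalazine (12.9%), and none with doxorubicin (10.3%), where edgeR gave 2 an unadjusted p under 0.05 and DESeq2 called 0. With WY14643 only Nfkbia differed (L2FC 0.70, SE 0.19, adjusted p = 0.00881, 0.247 per rat), where 5.74% of all genes did. For the other members the difference of 200 from 8 µM on the L2FC scale was −0.10 (SE 0.35) for Cxcl2, 0.031 (SE 0.23) for Nfkbie, −0.039 (SE 0.18) for Tnfaip3, −0.010 (SE 0.14) for Relb, 0.16 (SE 0.10) for Icam1, 0.48 (SE 0.75) for Ccl20 and −0.94 (SE 0.44) for Ccl2. These errors leave room for differences of unlike size, widest for Ccl20. Valproic acid showed the chemokines apart: Ccl20 fell further at the high concentration (L2FC −2.93, SE 0.59), while Cxcl2 read 0.44 (SE 0.24, not called).

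In culture medium without DMSO 6 of the 8 members were lower than in vehicle and none was higher (0 also at an unadjusted p under 0.05 and by DESeq2), when 5.1% of all genes were lower and 7.51% higher. Cxcl2 read 3.69, 5.12 and 6.42 CPM in the medium wells of batch 1 and 2.56, 3.00 and 4.55 CPM (lowest, median, highest) in batch 2, below all vehicle wells (L2FC −1.57, SE 0.20, adjusted p = 1.40e-10). Ccl20 (L2FC −1.98, adjusted p = 1.12e-05), Ccl2 (−1.11), Nfkbie (−0.57), Relb (−0.38) and Icam1 (−0.28) were lower as well, and Nfkbia and Tnfaip3 were not called. The 6 calls became 2 in batch 1 alone, 3 without replicate 2 of every group, 3 without replicate 3 and, with 1 value per rat, 1 (Cxcl2, adjusted p = 0.0263). Without the shallowest medium well 6 members were called. All vehicle and medium wells of batch 1 stood on 1 plate. The 12 treatments of the other plate in batch 1, those with acetaminophen, chloramphenicol, indomethacin, ketoconazole, sulfasalazine and WY14643, were therefore compared with vehicle across plates, and in that batch plate and treatment cannot be told apart for them. Each chemical was compared with the DMSO vehicle and not with medium alone.

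Of the 93 calls over the 28 treatments, 90 had the same sign in both batches fitted alone, 68 were called in each batch by itself, and 69 were called with the wells summed per rat. The 3 calls with opposite signs were Cxcl2 with ranitidine, Ccl20 with doxorubicin and Icam1 with acetaminophen. The ST assay of the same lysates, with the same probes, gave 81 of these calls a value. All 81 had the same sign there, and 71 were called. The ST assay also called 14 pairs that the WT assay did not, 6 higher and 8 lower, all with the sign of the WT value. Among these were rises of Tnfaip3 (0.52 and 0.74) and Relb (0.43 and 0.40) with isoniazid and ranitidine. In batch 1 all ST wells of Tnfaip3 with these treatments were above vehicle. In batch 2 they read 701 to 931 CPM with isoniazid and 731 to 1034 CPM with ranitidine, overlapping vehicle (687 to 1027 CPM). The ST libraries come from the same wells and add no rat.

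**Figure D5:**
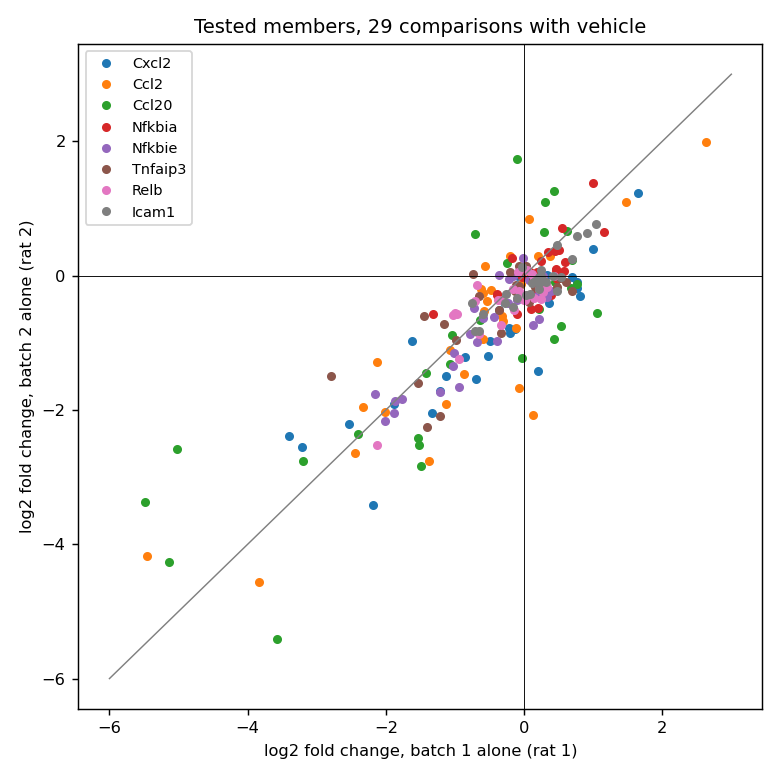
Each point is 1 tested member in 1 of the 29 comparisons with vehicle, with its log2 fold change from batch 1 alone on the x axis and from batch 2 alone on the y axis, coloured by gene, and the grey line marks equality. Points of the largest falls (Ccl2, Ccl20, Cxcl2) lie at the lower left, and Ccl20 with doxorubicin lies at −0.10 and 1.74.

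The rest of the pathway was read from lists of genes by role, beside the 25.4% of all pairs higher and 25.5% lower. Of 22 tested genes that act upstream (receptors, adaptors and ligands of the pathway), 99 of 308 pairs at high concentrations were higher (32.1%) and 66 lower (21.4%), with a median L2FC of 0.10. Tab2, an adaptor of the TAK1 kinase, was higher with 15 treatments and lower with none, up to 1.29 with acetaminophen. Tlr3, a sensor of double-stranded RNA, was lower with 13, down to −3.73 with acetaminophen. Irak3, a brake of Toll-like receptor signalling, was lower with 10 and higher with 4, from −1.53 with 200 µM WY14643 to 1.75 with ranitidine.

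Of 12 tested kinases, NF-kB subunits and IkB proteins outside the members, 42 of 168 pairs were higher (25%) and 55 lower (32.7%). Ikbkb, the kinase that marks IkB proteins for degradation, was lower with 14 treatments, down to −1.05 with 8 µM WY14643. Ikbkg, the regulatory subunit of that kinase complex, was lower with 13, down to −2.03 with valproic acid, and Nfkb1 was lower with 12 and higher with 2. Of 13 other feedback genes, 42 of 182 pairs were higher (23.1%) and 54 lower (29.7%). Traf1 and Ier3 were each lower with 11 treatments and higher with 2, down to −2.73 with diclofenac and −2.02 with caffeine, while Cflar, which restrains caspase-8, was higher with 8 treatments and lower with 3, up to 1.21 with caffeine.

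Of 8 other chemokines tested, 48 of 112 pairs were lower (42.9%) and 27 higher (24.1%). Cxcl3, the third CXCR2 ligand here, was lower with 13 treatments and higher with 3, from −6.96 (SE 0.57) with caffeine to 1.89 with isoniazid. Cxcl16 was lower with 16 treatments and higher with 1, down to −2.50 with 200 µM WY14643. Cxcl12, a constitutive chemokine of the CXCR4 axis, was higher with 10 treatments and lower with 5, from −3.34 with ranitidine to 4.81 with 200 µM WY14643. Other NF-kB target genes gave 80 of 182 pairs lower (44%) and 47 higher (25.8%), with Tnfaip2 lower with 17 treatments and higher with 1 (−3.97 with caffeine), Lif lower with 14 and higher with 2 (−2.56 with acetaminophen) and the complement gene Cfb higher with 9 (1.65 with acetaminophen) and lower with 6 (−1.72 with diclofenac). Of the chemokine receptors 2 of 11 measured passed the filter: Ackr3, a scavenger of Cxcl12, was higher with 10 treatments (3.73 with caffeine) and lower with 1 (−1.89 with doxorubicin), and Cxcr4 was higher with 4 (1.77 with ranitidine). Of the adhesion molecules and integrins 1 of 9 measured passed, Itga4, which was lower with 9 treatments. Its fitted L2FC with doxorubicin was −7.17 (SE 0.72), which is no exact fold.

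The cultures read as hepatocytes. The summed level of the 9 measured hepatocyte markers (Alb, Ttr and others) was 37800 to 45100 CPM in the vehicle wells, and Cd3d, Mpo, Nkg7 and Krt7, markers of T cells, neutrophils, cytotoxic cells and bile duct cells, had 0 reads in all 9. Other markers on the same lists were present: the cholangiocyte markers summed to 37.7 to 50.6 CPM in the vehicle wells, most of it Epcam (37.7 CPM), with Sox9 (3.15 CPM) and Spp1 (2.90 CPM) in every vehicle well, and the leukocyte markers summed to 0.15 to 2.49 CPM. Kupffer cell markers were present at a low level: the 12 markers summed to 80.5 to 95.9 CPM in the vehicle wells of batch 1 and 54.4 to 76.4 CPM in batch 2, with Clec4f and Cd68 detected in each. In these bulk wells fewer cells of a type and less RNA per cell cannot be told apart. With several chemicals that lowered the chemokines the Kupffer sum stood below vehicle, at 0.196 and 0.159 times vehicle with caffeine (batches 1 and 2), 0.323 and 0.246 with valproic acid, 0.399 and 0.309 with indomethacin and 0.592 and 0.488 with diclofenac, each with 7 of the 8 tested markers lower. It was 0.409 and 0.399 times vehicle with ranitidine (7 of 8 lower), 0.708 and 0.499 with ketoconazole (7 of 8), 0.625 and 0.394 with naproxen (6 of 8), 0.753 and 0.517 with 60 µM simvastatin (4 of 8), 0.873 and 0.772 with 450 µM chloramphenicol (4 of 8) and 0.845 and 0.73 with 200 µM WY14643 (2 of 8). Its part in those falls was not tested. It was lowest with doxorubicin, at 0.0901 and 0.106 times vehicle with 7 of 8 tested markers lower, where none of the tested chemokines was called lower. With 8 µM WY14643 the sum was 1.07 and 0.776 times vehicle with none of the 8 called, and 7 members were lower. With 100 µM sulfasalazine it was 1.07 and 0.823 times vehicle with none of the 8 called, and 5 members were lower. With acetaminophen, where Ccl2 rose and Cxcl2 fell, it was 0.437 and 0.529 times vehicle with 7 of 8 lower, and with isoniazid, where 3 members rose, 1.27 and 0.78 times vehicle with 2 of 8 lower. The high concentrations with 1 of the 8 tested markers called higher were those of diclofenac, valproic acid, ranitidine, ketoconazole, WY14643, acetaminophen and isoniazid.

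Markers of stellate cells and fibroblasts (10 measured) summed to 0.524 and 0.425 times vehicle with 8 µM WY14643, 0.243 and 0.177 with caffeine, 0.691 and 0.569 with 60 µM simvastatin, 0.687 and 0.644 with 100 µM sulfasalazine and 1.13 and 1.44 with isoniazid. The sum was below vehicle in both batches with every high concentration except isoniazid. With 200 µM WY14643 it was 0.429 and 0.353 times vehicle, with diclofenac 0.474 and 0.32, and with 10000 µM valproic acid 0.438 and 0.349. Most of this sum is Reln (245 CPM in vehicle), followed by Col3a1 (49.2 CPM) and Col1a2 (24.1 CPM), while 6 others were under 1 CPM, and 1 of the 4 tested markers was lower and 1 higher with 8 µM WY14643. Hepatocyte markers summed to 0.215 and 0.181 times vehicle with diclofenac, 0.392 and 0.294 with ranitidine and 1.03 and 0.987 with 60 µM simvastatin, where 7 members were lower and the Kupffer and stellate sums stood below vehicle. In both batches they were below vehicle with every high concentration except simvastatin and sulfasalazine. With caffeine they summed to 0.602 and 0.512 times vehicle, with 10000 µM valproic acid to 0.527 and 0.384. Endothelial markers (10 measured, 22.6 to 31 CPM summed in the vehicle wells, mostly Egfl7, the 1 tested) summed to 0.336 and 0.294 times vehicle with caffeine, where Egfl7 was lower, and to 1.42 and 1.12 with isoniazid, where it was higher. Cholangiocyte markers summed to 0.215 and 0.189 times vehicle with diclofenac, with 3 of 3 tested lower, and leukocyte markers, none of which was tested, to 0.0854 and 0 with caffeine. The part of these cell types in the results was not tested.

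The genes whose pattern was most like each member were found by Pearson's r over 60 group means (30 groups in each batch, on log2(CPM + 1), centred per batch). These r are descriptions, since the means share rats and sequencing depth. Among members the closest pairs were Cxcl2 with Nfkbie (r = 0.829), Cxcl1 with Nfkbie (0.825), Cxcl1 with Cxcl2 (0.802), Tnfaip3 with Relb (0.797) and Ccl2 with Ccl7 (0.781). Nfkbia stood apart from the other 9, with r from −0.219 (Relb) to 0.206 (Icam1). Over all genes tested, Ccl2 was most like Pam (0.858) and Pik3r3 (0.807), Ccl20 was most like Reln (0.783) and Tnfsf15 (0.774), and Icam1 was most like Gng12 (0.844) and Bin1 (0.769). Relb paired with Rcan1 (0.882) and Tmem123 (0.829), Tnfaip3 with Pawr (0.896) and Krt8 (0.873), Nfkbie with Sfxn3 (0.889) and Bmp1 (0.885), and Nfkbia with Ip6k2 (0.757) and Ifngr1 (0.711). The 2 genes most like Cxcl2 carry only the clone names AABR07028997.1 (0.874) and AABR07018038.1 (0.861). Pam, Reln, Ip6k2, Gng12 and Rcan1 were first for their member in batch 2 alone too, and AABR07028997.1 came 8th and Pawr 46th there.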

How the data were processed

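TempO-Seq libraries of hepatocyte lysates were made with the WT assay (22253 probes) and the ST assay (2654 probes). The authors aligned reads to rn6 with STAR 2.5.3a and deposited raw counts per probe and well, which were used as deposited, with the probes of a gene added. A ligated probe reports a short stretch of a transcript, so probe efficiency sets the level and a change outside that stretch is not seen. No depth filter was applied to wells.

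Only genes whose mean over wells reached 10 counts (10191 WT, 1760 ST) were fitted with edgeR 4.0.16 (R 4.3.3; quasi-likelihood, TMM factors, treatment and batch as terms, all wells), and p-values were Benjamini-Hochberg adjusted over all genes tested in a comparison. The SE is the absolute L2FC over the square root of F. CPM is per total counts of a well. Values for Cxcl1 and Ccl7 in the L2FC map come from a fit without the filter. Wells are technical replicates of 2 rats, so these p-values measure the spread between wells, and no 2 wells held identical counts. Exact intervals and floors (3 reads) cover counting error only. Alternatives were DESeq2 1.42.0, other scalings, no filter, a fold minimum, each batch alone, wells summed per rat, plate-matched vehicle, smaller fits, no batch term, the ST assay and wells left out, and, chosen after seeing its depth, the fit without the shallowest medium well. The scripts were tested on simulated data.

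All 10 members are named. From each pathway list, up to 3 tested genes called in the most of the 28 treatments are named, and for each tested member the 2 genes most like it. The members and lists were chosen with earlier results of these data known. Some listed genes are not analysed here. Promoter sequences are from RefSeq (GRCr8), and Ccl2 and Relb had no entry. That build is not the rn6 of the alignment, and no rn6 coordinate is given.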

Additional observations from a re-analysis of the deposited data

Results flagged for a closer look

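The L2FC of 12 of 232 member comparisons with vehicle differed between the batches (edgeR's quasi-likelihood test of the interaction of treatment and batch, Benjamini-Hochberg adjusted p under 0.05 over all genes tested). This is 5.17% of them, and 2.36% of all gene comparisons were called. Each batch is 1 rat, and the paper states that its libraries were also made and sequenced separately. Rat, library preparation and sequencing therefore cannot be told apart in these values. Nor can plate be told apart for the batch 1 treatments on the plate without vehicle. Of the 12, 7 were Tnfaip3, at high concentrations. The L2FC of batch 2 minus that of batch 1 was −0.85 with caffeine (adjusted p = 0.00193), 1.32 with diclofenac (5.11e-07, L2FC −2.79 and −1.50), −0.65 with ketoconazole (0.0397), −0.94 with ranitidine (0.000261, 0.70 and −0.23), 0.81 with sulfasalazine (0.0108), −0.88 with valproic acid (0.00118) and 0.88 with 200 µM WY14643 (0.00521). The interaction was called for 13% of all genes with ranitidine, 10.1% with diclofenac, 8.78% with caffeine, 8.64% with valproic acid, 6.47% with acetaminophen, 3.29% with ketoconazole, 2.55% with sulfasalazine, 1.44% with doxorubicin, 1.03% with 200 µM WY14643 and 0.373% with chloramphenicol.

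With 4000 µM ranitidine, Cxcl2 differed by −1.64 between the batches (adjusted p = 0.000323) and Nfkbie by −0.88 (0.0485, L2FC 0.22 and −0.64). Ccl20 differed by 1.84 with 2 µM doxorubicin (0.0269). Icam1 differed by −0.55 with 10000 µM acetaminophen (0.0139) and by −0.73 with 450 µM chloramphenicol (0.00302, L2FC 0.48 and −0.24). In the ST assay of the same wells every Icam1 value with 450 µM chloramphenicol was above vehicle in both batches. It was 618 to 827 CPM against 517 to 609 in batch 1, and 649 to 727 against 527 to 629 in batch 2.

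A medium well of batch 2 read Nfkbie at 8.74 CPM, where the next of the 6 wells read 14.0 CPM, a gap past Dixon's 95% critical value of 0.625. This was 1 of 20 groups looked at, and chance alone passes that value in about 1 group of 20.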

How the results depend on the processing

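The counts of member-treatment pairs at high concentrations (13 higher, 63 lower) stayed within 1.5 times these values under every alternative run except the rule that adds an absolute L2FC of at least 1, which left 5 higher and 40 lower, 6 lower at low concentrations and 3 with medium alone. Leaving out wells gave 11 to 13 higher and 58 to 63 lower. Of the low concentrations, where none was higher, total counts and DESeq2 called 1 higher, batch 1 alone, batch 2 alone and the ST assay 2, the vehicle wells of the same plate in batch 2 gave 3 and fits of only treatment and vehicle wells 4, and leaving out wells gave 0 to 1. The 17 lower became 9 in batch 1 alone, 8 with wells summed per rat, 11 to 15 without replicate 1, 2 or 3 of every group (11 without replicate 2 and 11 without replicate 3) and 15 to 18 without a vehicle well. The 6 members called with medium alone became 2 in batch 1 alone, 1 per rat and 3 to 6 when wells were left out, again 3 without replicate 2 and without replicate 3. The cause was not tested.

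Among values called in the fit reported or in the alternative, 7 changed sign against the fit reported: Cxcl2 with ranitidine (0.20 in batch 1 alone), Ccl20 with doxorubicin (−0.10 in batch 1 alone), Ccl20 with 300 against 12 µM indomethacin (0.052 in batch 2 alone), Icam1 with acetaminophen (−0.20 with total counts, −0.024 in batch 2 alone, −0.12 against the vehicle wells of its plate) and Icam1 with chloramphenicol (−0.33 against the vehicle wells of its plate).

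Wells are paired only through their rat, and the well numbers were given in accession order. Batch is the replicate block of the fits reported. Without that block 12 pairs were higher and 58 lower at high concentrations, none higher and 12 lower at low ones, and 5 members were called with medium. Of the 93 calls over the 28 treatments, 24 were not made with wells summed per rat.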
